A study of Mus musculus with 12 samples.

Results

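A set of 9 genes that mark macrophages of the borders of the central nervous system or macrophages in the alternatively activated state was followed through 12 bulk RNA-seq libraries of mouse spinal cord: Arg1, Mrc1, Cd163, Folr2, F13a1, Stab1, Pf4, Cbr2 and Clec10a. They were chosen as a named list, by gene symbol, and make up 9 of the 37991 genes in the count table. The list was drawn up with the wide spread of Arg1 among the tamoxifen libraries already known. That spread, and the tests of Arg1 that use those libraries, are given here as descriptions. The study compared spinal cord lesions with attenuated and with dense pericyte-derived scarring. All mice were adults of more than 8 weeks on a C57bl/6J background and carried Glast-CreERT2, R26R-YFP and the Rasless alleles.

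The SCI Tam group (4 libraries) received 5 daily injections of 2 mg tamoxifen, had a clearing period of 7 days, and was then given a dorsal hemisection of the upper thoracic cord. The lesion was collected 14 days later. The SCI Veh group (4 libraries) had the same genotype, the solvent in place of tamoxifen, the same injury and the same 14 days. The Uninjured group (4 libraries) also had the same genotype, is labelled as given vehicle, and supplied a segment of intact cord. Glast-CreERT2 drives recombination in type A pericytes, per the labels' protocols. Each library is RNA of a whole piece of tissue, so fewer macrophages and less RNA per macrophage cannot be told apart. The 3 groups are named tamoxifen lesions, vehicle lesions and uninjured cord below, and a library is named by the number in its title.

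Border macrophages sit in the meninges, in the perivascular spaces and in the choroid plexus. They take up solutes and debris through scavenger and lectin receptors, and in mice they are known for Mrc1, Cd163, Folr2, Stab1, F13a1, Pf4, Cbr2 and Clec10a. Alternative activation is the state that macrophages enter under the cytokines IL-4 and IL-13, through STAT6, and Arg1, Mrc1 and Clec10a are among its classical mouse markers. Arginase 1, the product of Arg1, splits arginine into urea and ornithine, the substrate of polyamine and proline synthesis.

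Library totals ran from 7967970 to 12581324 counts over genes. Tamoxifen libraries 513, 549 and 564 carry sample names 106 to 108, whereas the other 9 libraries carry names from 1 to 20. By Xist and Ddx3y counts, 0 of 4 tamoxifen, 3 of 4 vehicle and 1 of 4 uninjured libraries were male. Skeletal muscle transcripts were high in 3 vehicle libraries (402, 429, 457) and 2 uninjured ones (377, 385) and in no tamoxifen library. Macrophage transcripts were present in every library. The summed level of 12 pan-macrophage genes such as Cd68 and Adgre1 was 974 to 1995 CPM (counts scaled to a common library total) in tamoxifen lesions, 1337 to 2399 CPM in vehicle lesions and 187 to 273 CPM in uninjured cord. None of the 12 was at 0 in any library. Microglia, the resident macrophages of the parenchyma, share such genes, and 10 microglia markers summed to 617 to 831 CPM in tamoxifen lesions, 712 to 1137 CPM in vehicle lesions and 295 to 345 CPM in uninjured cord, with 8 of 10 higher in either lesion group than in uninjured cord. The tissue was mostly of other cells: 8 oligodendrocyte genes alone summed to 20816 to 22029, 17804 to 21167 and 17016 to 21247 CPM in the 3 groups. Differences were tested with edgeR's quasi-likelihood test across 16473 genes, with p-values adjusted over all of them by Benjamini-Hochberg and a threshold of 0.05. All 9 genes passed the filter on low counts. Arg1 reached its floor of 0.914 CPM in 3 tamoxifen, 3 vehicle and 0 uninjured libraries, and Clec10a in 2, 4 and 1. Arg1 therefore entered the test through its lesion libraries, and Clec10a through the vehicle libraries, where it was high. The differences of both genes in every comparison are given as descriptions that support nothing.

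**Figure D1:**
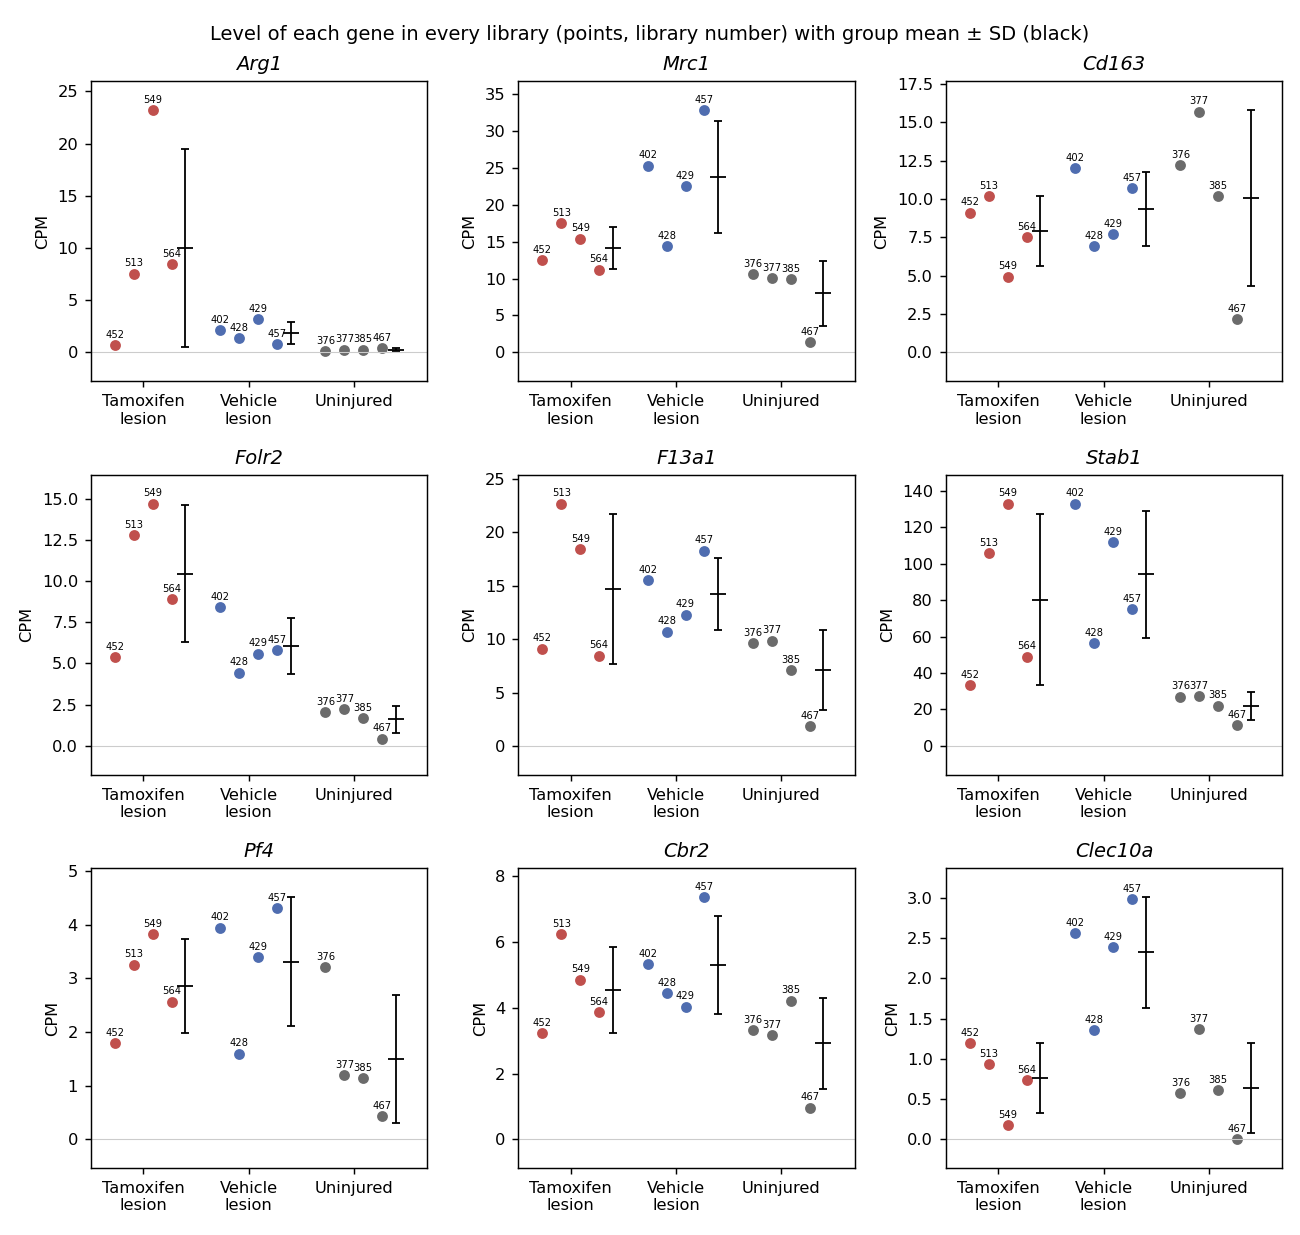
Level of each of the 9 genes in CPM (vertical axes, a separate scale per gene) in every library of tamoxifen lesions, vehicle lesions and uninjured cord; black bars give the mean ± SD of 4 libraries. Arg1 spans 0.719 to 23.2 CPM within the tamoxifen lesions, and uninjured library 467 is the lowest of its group for 8 of the 9 genes.

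Scaled for transcript length, Stab1, which encodes the scavenger receptor stabilin-1, was the most abundant of the 9 in every group, with means of 14.3 ± 6.57 FPKM in tamoxifen lesions, 19.1 ± 6.38 FPKM in vehicle lesions and 3.63 ± 1.45 FPKM in uninjured cord (SD, n = 4 each). The place of Arg1 differed most between groups. It ranked 3 of 9 by mean FPKM in tamoxifen lesions (6.39 ± 5.98 FPKM), last in vehicle lesions (1.2 ± 0.656 FPKM) and last in uninjured cord (0.158 ± 0.0628 FPKM; SD, n = 4 each). Clec10a was last in tamoxifen lesions at 0.586 ± 0.332 FPKM. Few neighbours in the order of the 9 genes differed by more than the larger of their SDs. They were Mrc1 over Cd163 and Cd163 over Clec10a in tamoxifen lesions, Stab1 over Pf4 and F13a1 over Clec10a in vehicle lesions, and Clec10a over Arg1 in uninjured cord.

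Between tamoxifen and vehicle lesions 1 of the 9 genes passed the test. Arg1 rose 5.38-fold, while the other 8 did not pass in either direction. Arg1 was singled out for its values in the same tamoxifen libraries, and those values helped it past the filter. Its call is therefore a description. Of all genes tested, 16.1% were called in this comparison, 7.79% higher and 8.33% lower. The median log2 change of the 9 genes was -0.22, against 0 for all genes tested.

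Arg1 was found at 0.719, 7.55, 23.2 and 8.45 CPM in tamoxifen libraries 452, 513, 549 and 564, against 2.14, 1.36, 3.21 and 0.784 CPM in vehicle libraries 402, 428, 429 and 457. Tamoxifen libraries 513, 549 and 564 lay above every vehicle library and 452 lay below every one, so the groups overlapped. Counting error was small beside that spread: library 549 held 267 Arg1 counts (95% interval 20.5 to 26.1 CPM) and library 452 held 6 (0.264 to 1.57 CPM). The means were 9.97 ± 9.44 CPM in tamoxifen and 1.87 ± 1.05 CPM in vehicle lesions (SD, n = 4 each), a log2 change of 2.43 (SE 0.69, 95% interval 0.93 to 3.92, adjusted p = 0.0329, edgeR). The deposited FPKM values gave the same order of libraries within the tamoxifen lesions, at 0.385, 4.89, 14.7 and 5.64 FPKM, against 1.38, 0.88, 2.02 and 0.507 FPKM in vehicle lesions.

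The Arg1 call rested on few libraries. It was lost on leaving out tamoxifen library 513 (adjusted p = 0.0601), 549 (log2 change 1.60, adjusted p = 0.0941) or 564 (0.0629), or vehicle library 402 (0.0662), 428 (0.0642) or 457 (0.0883). Over all 24 alternatives its adjusted p ran from 0.000938 to 0.663. The 3 tamoxifen libraries high in Arg1 are those named 106 to 108. With a term for that series of names, the fitted change of tamoxifen against vehicle lesions was -1.36 (SE 1.04, adjusted p = 0.588). Library 452 is the only tamoxifen library of the other series, and without the 3 libraries the value was also -1.36 (adjusted p = 0.47). The part of tamoxifen and the part of the name series in this difference therefore cannot be told apart beyond that 1 library. With a term for sex the change was 1.95 (SE 1.05, adjusted p = 0.254).

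**Figure D2:**
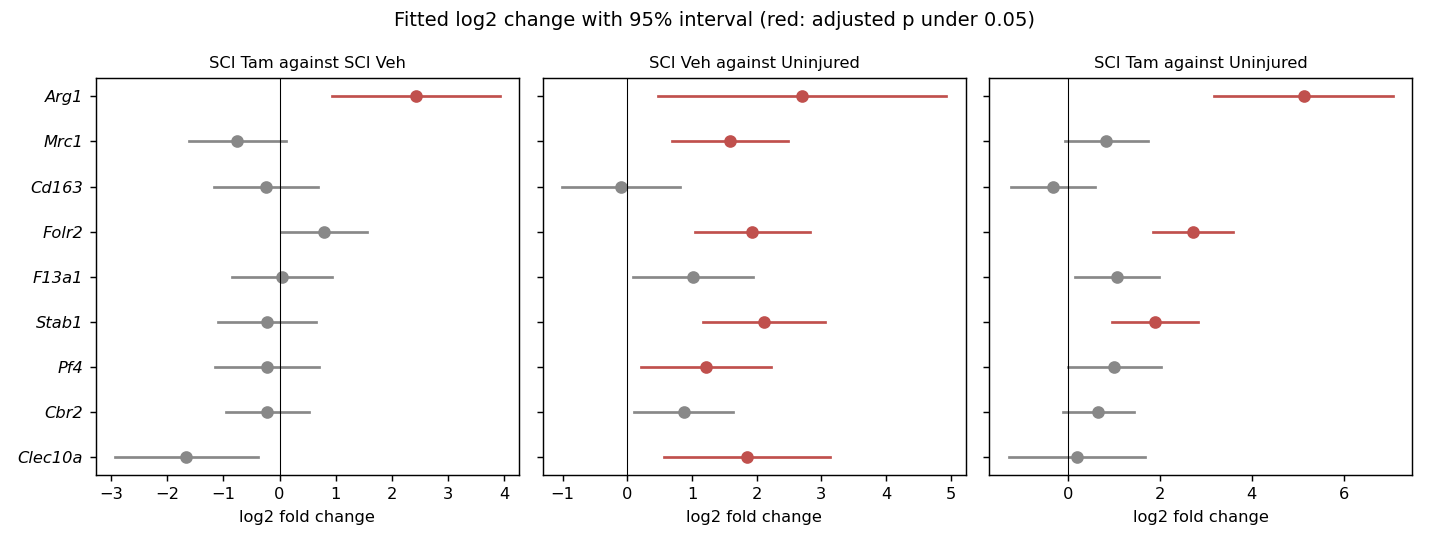
Fitted log2 fold change (horizontal axes) of the 9 genes with its 95% interval in the 3 comparisons named above the panels; red marks an adjusted p under 0.05. Arg1 is the only gene called between tamoxifen and vehicle lesions, 6 genes are called between vehicle lesions and uninjured cord, and Cd163 is called in no comparison.

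The lectins ran the other way in value. Clec10a, the galactose-type C-type lectin also called MGL1, was at 1.2, 0.932, 0.173 and 0.735 CPM in tamoxifen libraries 452, 513, 549 and 564, against 2.56, 1.36, 2.39 and 2.98 CPM in vehicle libraries 402, 428, 429 and 457. Every tamoxifen library lay below every vehicle library, the only gene of the 9 for which these groups did not overlap, where 16.4% of all genes tested did not overlap and 8.77% did so in this direction. The log2 change of -1.66 (SE 0.59, 95% interval -2.93 to -0.39) missed the threshold (adjusted p = 0.0696, edgeR). It passed without tamoxifen library 452 (0.0419), without uninjured library 467 (0.0298) and in a fit of the 8 lesion libraries alone (0.0429), with a range of 0.0298 to 0.85 over 24 alternatives. These values rest on 2 to 10 Clec10a counts per tamoxifen library and 11 to 38 per vehicle library. Clec10a passed the filter on low counts only through the vehicle libraries, so its difference from tamoxifen lesions is a description and supports nothing.

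Mrc1, the mannose receptor CD206, was at 12.5, 17.5, 15.4 and 11.2 CPM in tamoxifen lesions and at 25.3, 14.4, 22.5 and 32.8 CPM in vehicle lesions, in the same order of libraries. Vehicle library 428 lay among the tamoxifen libraries and the other 3 vehicle libraries lay above them all. The log2 change was -0.75 (SE 0.4, 95% interval -1.61 to 0.11, adjusted p = 0.201, edgeR), and it passed the threshold only without uninjured library 467 among the 24 alternatives (adjusted p = 0.033, range 0.033 to 0.994).

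Folr2, a folate receptor anchored to the membrane by a lipid, had 5.39, 12.8, 14.7 and 8.91 CPM in tamoxifen lesions and 8.44, 4.44, 5.6 and 5.8 CPM in vehicle lesions. Tamoxifen libraries 513, 549 and 564 were above all vehicle libraries, as for Arg1, and 452 was within the vehicle range. The log2 change of 0.79 (SE 0.35) did not pass (adjusted p = 0.135, edgeR), and it passed without library 452 (1.00, adjusted p = 0.0311, range 0.0311 to 0.913 over 24 alternatives).

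The remaining 5 genes had fitted changes close to that of the median gene. Stab1 differed by -0.22 (SE 0.4), Pf4, a chemokine stored in platelets and made by border macrophages, by -0.22 (SE 0.43), Cbr2, a carbonyl reductase, by -0.22 (SE 0.34), Cd163, the haemoglobin-haptoglobin receptor, by -0.24 (SE 0.43), and F13a1, the catalytic subunit of the fibrin-stabilising factor XIII, by 0.05 (SE 0.41). Their 95% intervals did not exclude changes of the size of 1 log2 unit for Cd163 (-1.17 to 0.68), Stab1 (-1.09 to 0.65) and Pf4 (-1.15 to 0.71). For F13a1 the interval was -0.84 to 0.93 and for Cbr2 -0.96 to 0.52.

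In vehicle lesions against uninjured cord 6 of the 9 genes were called higher, where 50.8% of all genes tested were called, 26.7% higher and 24.1% lower. Mrc1, Folr2, Stab1 and Pf4 were 4 of them, out of the 7 genes that reached the floor in at least 3 uninjured libraries. The other 2 were Arg1 and Clec10a, which had to be higher in lesions to be tested. No gene of the 9 fell. The median log2 change of the 9 was 1.59, against 0.02 for all genes tested. The 3 calls for Mrc1, Folr2 and Stab1 held in each of the 12 fits that left out 1 library.

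Stab1 was at 133, 56.2, 112 and 75.1 CPM in vehicle libraries 402, 428, 429 and 457, against 27, 27.1, 22.1 and 11.2 CPM in uninjured libraries 376, 377, 385 and 467. The lowest vehicle library lay above the highest uninjured one, and the change was 2.11 (log2, SE 0.43, adjusted p = 0.00134, edgeR). Folr2 was at 2.07, 2.23, 1.67 and 0.439 CPM in uninjured cord, again with no overlap with the vehicle values above (log2 change 1.93, SE 0.41, adjusted p = 0.00167). Mrc1 was at 10.6, 10.1, 9.93 and 1.4 CPM in uninjured cord, below all vehicle libraries (log2 change 1.59, SE 0.41, adjusted p = 0.00633). Arg1, and F13a1, which was not called, also had no overlap between these groups. The share of all genes tested without overlap was not counted here, where 50.8% were called. The absence of overlap is therefore a description.

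The other 3 calls were less firm. Arg1 had 1, 3, 3 and 5 counts in uninjured libraries 376, 377, 385 and 467, against 20, 11, 35 and 10 in the vehicle libraries, and the call at a log2 change of 2.7 (SE 1.03, adjusted p = 0.0435, edgeR) was lost in 8 of the 12 fits that left out 1 library (adjusted p up to 0.123). Those 8 left out tamoxifen library 564, vehicle library 402, 428 or 429, or any 1 of the uninjured libraries. Pf4 was at 3.95, 1.6, 3.4 and 4.31 CPM in vehicle lesions and 3.21, 1.2, 1.14 and 0.439 CPM in uninjured cord, with overlap. Its log2 change of 1.22 (SE 0.46, adjusted p = 0.043) was also lost in 8 of the 12 (tamoxifen 513 or 564, vehicle 402, 429 or 457, uninjured 377, 385 or 467; adjusted p up to 0.123). Without uninjured library 376 it was 1.84 (adjusted p = 0.00413). Library 376 held erythroid genes at a summed 164 CPM, against 10.6 to 20 CPM in the other uninjured libraries, and neutrophil genes at 94.6 CPM, against 10.5 to 26.1 CPM, and the part of blood in its Pf4 level was not tested. Clec10a was at 0.574, 1.37, 0.615 and 0 CPM in uninjured cord, where 1.37 CPM in library 377 just exceeded the lowest vehicle value. Its log2 change of 1.85 (SE 0.59, adjusted p = 0.0198) was lost without vehicle library 402 or 457 or uninjured library 376 or 385 (adjusted p up to 0.0628).

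Cd163 was called in neither lesion group against uninjured cord. It was at 12, 6.91, 7.71 and 10.7 CPM in vehicle libraries 402, 428, 429 and 457, against 12.2, 15.7, 10.2 and 2.19 CPM in uninjured libraries 376, 377, 385 and 467. The vehicle values fell inside the uninjured range, and the log2 change was -0.10 (SE 0.42, 95% interval -1.01 to 0.81, adjusted p = 0.864, edgeR). F13a1 averaged 14.2 ± 3.35 CPM in vehicle lesions and 7.11 ± 3.73 CPM in uninjured cord (SD, n = 4 each; log2 change 1.01, adjusted p = 0.0642), and Cbr2 averaged 5.3 ± 1.48 and 2.92 ± 1.38 CPM in these groups (log2 change 0.87, adjusted p = 0.0552), without passing the threshold. With 1 library left out, Cbr2 passed only without uninjured library 385 (1.11, adjusted p = 0.0357).

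Against uninjured cord, tamoxifen lesions had 3 of the 9 genes called higher and none lower, where 48.9% of all genes tested were called, 26.3% higher and 22.7% lower. The comparison shares its uninjured libraries with the one above, and its tamoxifen libraries with the first. Folr2 rose by 2.72 (log2, SE 0.4, adjusted p = 0.000214, edgeR) and Stab1 by 1.89 (SE 0.43, adjusted p = 0.00324), and both held in each of the 12 fits that left out 1 library. The third call was Arg1, with a fitted change of 5.13 (SE 0.9) from 1 to 5 counts per uninjured library. For Arg1 the lowest tamoxifen library, at 0.719 CPM, was above the highest uninjured one, at 0.439 CPM, though the counting intervals of these 2 libraries overlapped (0.264 to 1.57 and 0.143 to 1.02 CPM). With the term for the name series only Folr2 of the 9 was called in this comparison (1.76, adjusted p = 0.05), and without libraries 513, 549 and 564 none was (0 called by edgeR; 1 at an unadjusted p under 0.05). The log2 changes of Mrc1 (0.83, adjusted p = 0.117), Clec10a (0.18, 0.845), Pf4 (1.00, 0.0938), Cbr2 (0.65, 0.148), F13a1 (1.06, 0.0555) and Cd163 (-0.34, 0.525) did not pass. Pf4 passed without uninjured library 376 (1.62, adjusted p = 0.00928), and F13a1 without tamoxifen library 452 (1.21, 0.0316) or 564 (1.25, 0.0323).

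The promoters of the 3 genes whose rise in vehicle lesions held with any 1 library left out, of Cd163, and of 2 genes with a match to a motif of macrophage regulators are shown so that their sequences can be set against these patterns. Each runs from 250 bases before to 50 bases after the transcription start in RefSeq, on GRCm38.p6, and is written 5′ to 3′ on the gene's strand. Capitals mark a match, on either strand, to 1 of 5 strings: GAGGAAGT for PU.1, the myeloid master regulator, TTC and GAA set 4 bases apart for STAT6, TGANTCA for AP-1, TTGCGCAA for C/EBP, and TATAAA for the TATA box. Arg1 and Clec10a had no entry in the table of promoters.

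Mrc1 (chr2:14229164-14229463, plus strand): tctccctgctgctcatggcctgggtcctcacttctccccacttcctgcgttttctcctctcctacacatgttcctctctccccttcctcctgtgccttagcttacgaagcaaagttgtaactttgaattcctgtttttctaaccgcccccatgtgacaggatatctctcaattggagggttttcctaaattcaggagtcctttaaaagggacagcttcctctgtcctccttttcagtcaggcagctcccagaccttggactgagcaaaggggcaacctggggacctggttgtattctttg
Stab1 (chr14:31168592-31168891, minus strand): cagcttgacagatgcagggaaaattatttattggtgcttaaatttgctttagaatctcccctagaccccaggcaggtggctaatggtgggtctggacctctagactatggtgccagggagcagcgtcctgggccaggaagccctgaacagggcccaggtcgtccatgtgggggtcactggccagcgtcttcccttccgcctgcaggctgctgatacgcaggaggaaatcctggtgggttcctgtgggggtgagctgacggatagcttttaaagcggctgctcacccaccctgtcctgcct
Folr2 (chr7:101845282-101845581, minus strand): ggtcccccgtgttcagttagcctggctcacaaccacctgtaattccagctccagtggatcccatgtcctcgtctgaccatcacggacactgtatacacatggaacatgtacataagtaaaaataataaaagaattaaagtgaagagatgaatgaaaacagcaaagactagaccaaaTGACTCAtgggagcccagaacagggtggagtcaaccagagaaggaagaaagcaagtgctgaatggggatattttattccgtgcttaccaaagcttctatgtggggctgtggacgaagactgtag
Cd163 (chr6:124304401-124304700, plus strand): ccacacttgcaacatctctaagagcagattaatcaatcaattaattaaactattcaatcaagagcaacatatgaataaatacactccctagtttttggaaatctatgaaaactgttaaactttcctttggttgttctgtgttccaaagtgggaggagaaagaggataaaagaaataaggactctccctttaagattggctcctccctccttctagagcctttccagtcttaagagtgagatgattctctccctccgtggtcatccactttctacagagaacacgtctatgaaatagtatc
Pf4 (chr5:90772185-90772484, plus strand): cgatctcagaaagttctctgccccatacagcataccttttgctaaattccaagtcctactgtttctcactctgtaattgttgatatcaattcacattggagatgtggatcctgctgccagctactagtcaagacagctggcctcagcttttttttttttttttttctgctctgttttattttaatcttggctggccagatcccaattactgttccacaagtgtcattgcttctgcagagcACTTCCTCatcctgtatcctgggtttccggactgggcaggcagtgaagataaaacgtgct
Cbr2 (chr11:120731972-120732271, minus strand): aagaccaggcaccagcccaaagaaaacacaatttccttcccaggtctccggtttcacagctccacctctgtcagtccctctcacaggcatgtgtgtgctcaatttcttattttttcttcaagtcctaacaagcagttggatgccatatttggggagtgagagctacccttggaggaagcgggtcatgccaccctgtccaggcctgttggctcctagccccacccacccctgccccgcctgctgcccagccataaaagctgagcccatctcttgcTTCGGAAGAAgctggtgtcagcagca

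In these windows Mrc1, Stab1 and Cd163 held none of the 5 strings. Pf4 held the PU.1 string on the opposite strand just before its start, and the second listed start of F13a1 held it on its own strand just after the start; 3.2% of 32851 promoters of the same length hold it. The 1 Folr2 start shown, the second of the 2 listed, held the AP-1 string (7.81% of promoters), the first held none, and Cbr2 held the STAT6 string (6.95%). A match of letters is a description, not a bound site.

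The 9 genes were also set against the pan-macrophage genes of the same library. This relative level is the log2(CPM + 0.5) of a gene minus the mean over the 12, is given without a test, and says nothing of which cells hold the transcript. The 12 pan-macrophage genes all rose in vehicle lesions against uninjured cord, with a median log2 change of 2.81, so the relative level was lower in vehicle lesions for 98.8% of all genes tested, with a median difference of -2.79, and for all 9 genes; that direction is the background and not a result about the 9. The size of the difference separates the 9 from each other. For Cd163 it was -2.67, near that of the median gene: its relative level averaged -2.82 ± 0.62 in tamoxifen lesions, -3.00 ± 0.51 in vehicle lesions and -0.33 ± 0.97 in uninjured cord (SD, n = 4 each). The lowest uninjured library, at -1.76, lay above the highest vehicle library, at -2.42. Arg1, Pf4 and Cbr2 also had no overlap of the relative level between these groups. The share over all genes tested was not counted, so the absence of overlap is a description and not a result about these genes. In CPM the fitted log2 change of Cd163 between these groups was -0.10. Mrc1, at -2.0, -1.72 and -0.66 in these groups, and Stab1, at 0.27, 0.22 and 0.95, moved less.

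Arg1 and Folr2 had the relative levels that differed most in favour of tamoxifen over vehicle lesions, by 2.02 and 1.09, where the median over all genes tested was 0.41. For Arg1 the level was -5.73, -2.9, -1.6 and -2.18 in tamoxifen libraries 452, 513, 549 and 564, against -5.2, -4.93, -4.82 and -5.55 in vehicle libraries 402, 428, 429 and 457. Tamoxifen library 452 was again below every vehicle library and the other 3 were far above them. For Folr2 the mean was -2.49 ± 0.65 in tamoxifen lesions, -3.58 ± 0.37 in vehicle lesions and -2.50 ± 0.52 in uninjured cord (SD, n = 4 each). None of the 12 pan-macrophage genes was called between tamoxifen and vehicle lesions by edgeR (median log2 change -0.42); Cd14 came nearest, at -0.49 (adjusted p = 0.0796).

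**Figure D3:**
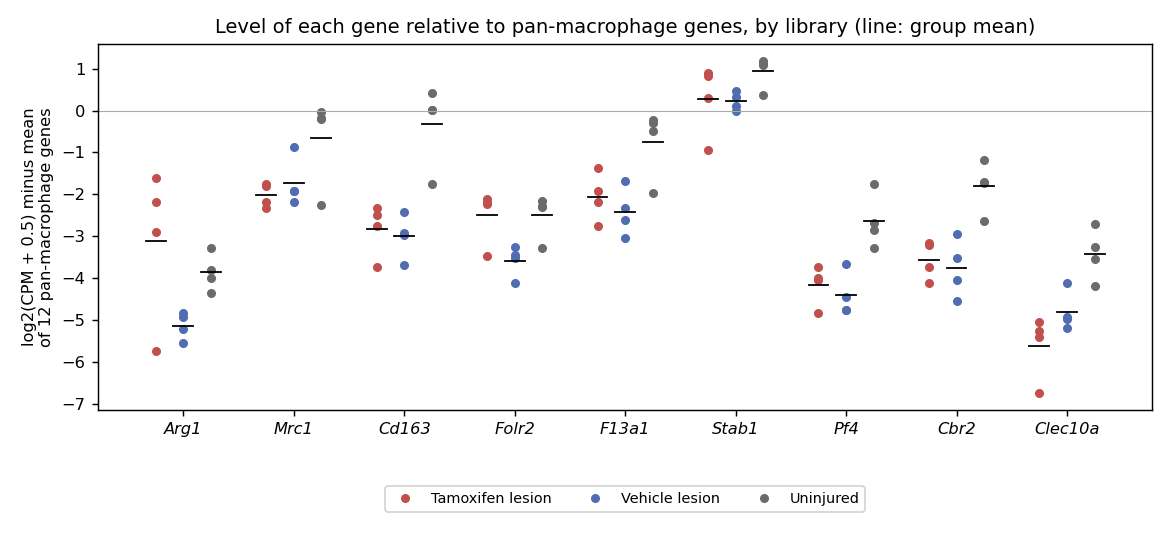
Relative level of each gene (vertical axis, log2(CPM + 0.5) minus the mean of 12 pan-macrophage genes of the same library) in tamoxifen lesions, vehicle lesions and uninjured cord; points are libraries and lines are group means. Cd163 averages -2.82 and -3.00 in the lesions and -0.33 in uninjured cord, and Arg1 in tamoxifen library 452 sits at -5.73, below the vehicle libraries. The median difference of vehicle lesions from uninjured cord over all genes tested was -2.79.

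Further genes known in border macrophages mostly rose in the lesions, and which cells held these transcripts was not tested. Some were high in uninjured cord, such as Gas6 at 166 to 214 CPM and Ednrb at 121 to 149 CPM. Of 27 such genes found in the table, 19 were tested: 0 rose and 2 fell in tamoxifen against vehicle lesions, 17 rose and 0 fell in vehicle lesions against uninjured cord, and 12 rose and 0 fell in tamoxifen lesions against uninjured cord. Over all genes tested, 8.33% fell in the first comparison, so 2 of 19 is near the background, and 26.7% and 26.3% rose in the other two. Ms4a7, a membrane protein that separates border macrophages from microglia in mice, rose by 4.87 (log2, SE 0.52, adjusted p = 1.46e-05, edgeR) to 11.8 ± 3.36 CPM in vehicle lesions, against 0.39 ± 0.11 CPM in uninjured cord (SD, n = 4 each). Ms4a7 lay under the floor of 0.914 CPM in every uninjured library, as did Ccl8, Clec4n and Wfdc17. Such genes had to be higher in lesions to be tested. The rise of Ms4a7 is therefore a description, and the counts of rises include it and may include the others. The 2 that fell in tamoxifen lesions were Igfbp4 (-1.28, adjusted p = 0.0046), an IGF-binding protein, and Colec12 (-0.86, adjusted p = 0.0473), a scavenger collectin, and fibroblasts and vessels are known to express both.

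Lyve1, a hyaluronan receptor of border macrophages and of lymphatic vessels, had 3, 4.19, 3.12 and 5.69 CPM in tamoxifen libraries 452, 513, 549 and 564, against 11.6, 5.18, 9.09 and 26.5 CPM in vehicle libraries 402, 428, 429 and 457. The groups overlapped only through vehicle library 428, and the log2 change of -1.72 did not pass (adjusted p = 0.058, edgeR). It rose in vehicle lesions against uninjured cord by 2.16 (adjusted p = 0.00823). Cd209a, a lectin of border macrophages and dendritic cells that was too low to test, was added after its values were seen. It had 0 counts in all 4 tamoxifen libraries, 1 to 21 counts (0.123 to 1.65 CPM) in vehicle lesions and 0 to 0.351 CPM in uninjured cord. Not all of the list ran this way: Timd4 was at 0.746 to 1.2 CPM in tamoxifen and 0.0918 to 1.02 CPM in vehicle lesions.

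Of 25 further genes of alternative activation, 16 were tested: 0 rose and 3 fell in tamoxifen against vehicle lesions, 12 rose and 0 fell in vehicle lesions against uninjured cord, and 10 rose and 0 fell in tamoxifen lesions against uninjured cord, where the shares over all genes tested were 8.33% lower, 26.7% higher and 26.3% higher. Those that fell in tamoxifen lesions were Egr2, a transcription factor induced by IL-4 (-1.28, adjusted p = 0.0368), Il1rn, the interleukin-1 receptor antagonist (-1.77, adjusted p = 0.0412), and Stat6, the transducer of IL-4 signals (-0.72, adjusted p = 0.0429). In vehicle lesions against uninjured cord, Cd200r1, an inhibitory receptor of myeloid cells, rose by 4.00 (adjusted p = 1.16e-05), Msr1, a scavenger receptor, by 3.86 (8.09e-05), Stat6 by 1.71 (6.83e-05) and Il4ra, the IL-4 receptor chain, by 1.52 (2.24e-05). Cd200r1, Il1rn and Ccl22 lay under the floor of 0.914 CPM in every uninjured library. These genes were tested through lesion libraries where they were higher, so their changes are descriptions. The count of rises includes Cd200r1 and may include the others. The cytokines themselves were near 0: Il4 and Il13 reached at most 0.171 and 0.0879 CPM in any library. Retnla, a classical companion of Arg1, stayed at or below 1.1 CPM, and Chil3 (listed as Chi3l3) was not called between tamoxifen and vehicle lesions (0.45, adjusted p = 0.771).

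Around arginase in its pathway, 4 of 18 genes rose and 0 fell in tamoxifen against vehicle lesions, 5 rose and 4 fell in vehicle lesions against uninjured cord, and 9 rose and 1 fell in tamoxifen lesions against uninjured cord. Over all genes tested 7.79% rose in the first comparison, 26.7% rose and 24.1% fell in the second, which the 5 and 4 of 18 do not depart from, and 26.3% rose in the third. The 4 that rose in tamoxifen against vehicle lesions were Odc1 (0.84, adjusted p = 0.00546, edgeR), the first enzyme of polyamine synthesis from ornithine, Oaz1 (1.17, 0.00811), the antizyme that inhibits it, Sms (0.47, 0.00608), spermine synthase, and Ddah1 (0.36, 0.0257), which degrades methylarginines. The counts of Odc1 and Oaz1 stepped up relative to the deposited FPKM in libraries 513, 549 and 564. Odc1 was at 46.7, 78, 76 and 61.1 CPM in tamoxifen lesions and 36.4, 41.4, 36.8 and 32.2 CPM in vehicle lesions, whereas its FPKM were 25.3, 28.6, 26.1 and 22.3 in tamoxifen lesions and 19.9, 21.2, 20.9 and 18.3 in vehicle lesions. The order of the groups was thus kept in FPKM for Odc1, with a smaller difference. For Oaz1 little of it was left: its CPM were 22.5, 59.7, 58.4 and 61.9 in tamoxifen lesions and 21.1 to 23.9 in vehicle lesions, whereas its FPKM were 78.1, 112, 104 and 114 in tamoxifen lesions and 73.6 to 87.7 in vehicle lesions, with library 452 inside the vehicle range in both. The step between the 2 tables in libraries 513, 549 and 564 was 1.01 log2 units for Oaz1, close to its whole called change.

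Other enzymes share the substrate of Arg1. Arg2, the mitochondrial arginase, was at 0.893 ± 0.507 CPM in tamoxifen lesions, 0.649 ± 0.235 CPM in vehicle lesions and 1.32 ± 0.12 CPM in uninjured cord (SD, n = 4 each); it fell in vehicle lesions by 0.97 on the log2 scale (adjusted p = 0.0498, edgeR). Nos2, the inducible nitric oxide synthase, was at 1.83 ± 0.341, 1.54 ± 0.361 and 0.804 ± 0.092 CPM in these groups and rose in vehicle lesions against uninjured cord by 0.94 (adjusted p = 0.00681). It was not called between tamoxifen and vehicle lesions (0.23, adjusted p = 0.555). Nos2 lay under the floor of 0.914 CPM in every uninjured library and Arg2 in most lesion libraries, so these changes are descriptions. Mrc2, a relative of Mrc1 and a collagen receptor of fibroblasts, fell by 1.78 in tamoxifen against vehicle lesions (adjusted p = 0.00585) and rose by 2.29 in vehicle lesions against uninjured cord (adjusted p = 0.000138).

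By the pattern over the 12 libraries, the gene most like Arg1 among 16103 genes compared was Cd5l, a secreted protein of tissue macrophages, with a root mean square difference of 0.47 log2 units between centred profiles (median of all genes 1.62). Cd5l was at 0.599, 13.7, 15.2 and 5.23 CPM in tamoxifen libraries 452, 513, 549 and 564, against 1.18, 0.988, 1.19 and 0.235 CPM in vehicle libraries 402, 428, 429 and 457, and at 0 to 0.0879 CPM in uninjured cord. Library 452 was within the vehicle range, and the other 3 tamoxifen libraries lay above it. Cd5l was picked for its likeness to Arg1 over these same libraries, and it reached the mean of 1 CPM through libraries 513, 549 and 564. Its pattern is therefore a description and supports nothing about Arg1. The FPKM of the same libraries were 0.268, 6.32, 7.08 and 2.51 in tamoxifen lesions, against 0.106 to 0.538 in vehicle lesions. Pira2, an immunoglobulin-like receptor, came second at 0.53. Its FPKM did not keep the pattern, at 0.462, 1.15, 1.64 and 0.658 in tamoxifen lesions, against 1.32, 0.748, 2.11 and 0.862 in vehicle lesions. The next 3 were predicted genes. For Gm12435 and Gm10156 the likeness was in the counts alone: Gm12435 had 15.6, 17.9, 19.3 and 14.5 FPKM in tamoxifen lesions, against 17.6 to 21 FPKM in vehicle lesions, and Gm10156 had 25.1 to 35.8 FPKM, against 23.7 to 41.2 FPKM. Gm5593 kept the pattern, at 0.36, 2.05, 2.88 and 2.96 FPKM in tamoxifen lesions and 0.783 to 1 FPKM in vehicle lesions.

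**Figure D4:**
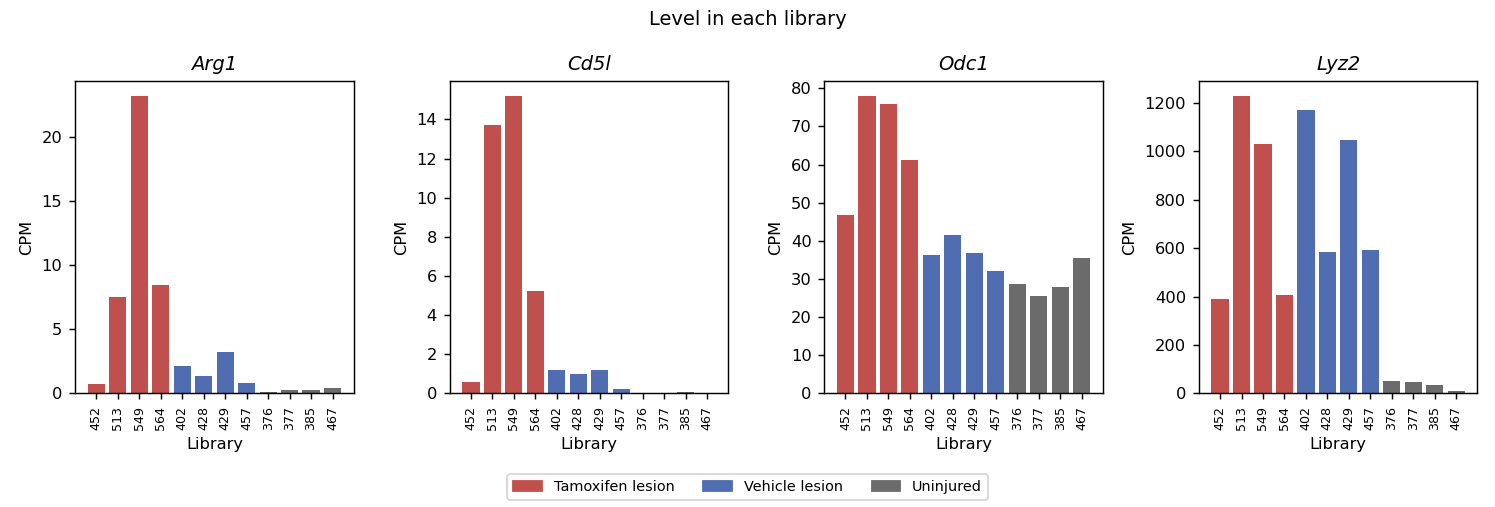
Level in CPM (vertical axes) of Arg1, Cd5l, Odc1 and Lyz2 in each library (horizontal axis), coloured by tamoxifen lesion, vehicle lesion and uninjured cord. Arg1 and Cd5l are high in tamoxifen libraries 513, 549 and 564 and low in 452, whereas Lyz2, a general myeloid gene, is high in libraries of both lesion groups, at 389 to 1229 and 583 to 1170.4 CPM. Cd5l was picked for its likeness to Arg1 over these libraries.

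The genes most like Mrc1 were Cp (0.34), Colec12 (0.34), Omd (0.35), Myof (0.38) and Copz2 (0.39), where the median of all genes was 1.01. Those most like Cd163 were Slc16a12 (0.31), Crispld2 (0.32), Bmp7 (0.37), Vtn (0.37) and Fam160a1 (0.38), with a median of 0.70. These likenesses are over 12 libraries that share their groups, and they carry no test.

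Among the uninjured libraries, 467 was the lowest for 8 of the 9 genes and the highest for Arg1. It was also low in 10 markers of meningeal fibroblasts, with a summed level of 71.3 CPM against 217 to 338 CPM in the other 3 uninjured libraries, and Crabp2 was at 0 in it. Tamoxifen library 549, the lowest of its group for Cd163 and Clec10a and the highest for Arg1, Folr2, Stab1 and Pf4, had the lowest meningeal sum of the tamoxifen lesions, at 198 CPM. Vehicle lesions summed to 316 to 445 CPM. Other libraries went the other way. Vehicle library 428, the lowest of its group for 7 of the 9 genes, had 337 CPM, above library 429, at 316 CPM. Tamoxifen library 452, the lowest of its group for 5 of the 9, had 244 CPM, above library 564, at 237 CPM. The order of these tamoxifen libraries depended on the measure. By the mean log2 level of the 10 markers, library 452 was at 3.76, below library 564, at 4.07. By that measure vehicle library 428, at 4.57, was still above library 429, at 4.07. Of the 10 markers, 0 rose and 3 fell in tamoxifen against vehicle lesions, and 4 rose and 0 fell in vehicle lesions against uninjured cord, where 8.33% of all genes tested fell in the first and 26.7% rose in the second. How far the amount of meninges in each piece of tissue enters the levels of the 9 genes was not tested.

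**Figure D5:**
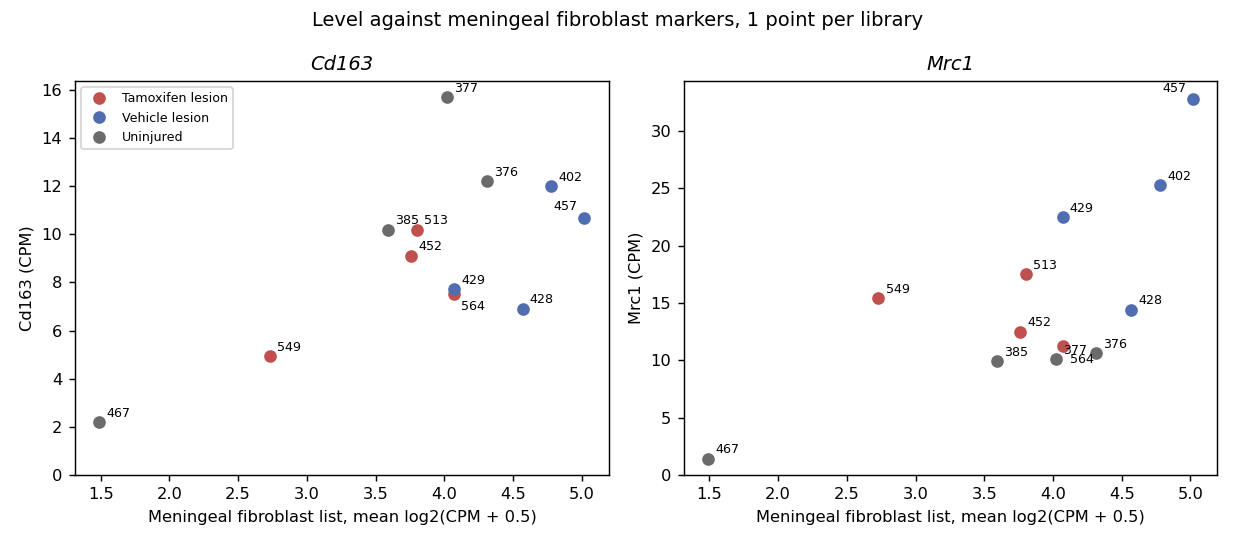
Level of Cd163 and of Mrc1 in CPM (vertical axes) against the mean log2(CPM + 0.5) of 10 meningeal fibroblast markers (horizontal axes), 1 point per library, coloured by tamoxifen lesion, vehicle lesion and uninjured cord. Uninjured library 467 is lowest on both axes, with Cd163 at 2.19 and Mrc1 at 1.4 CPM.

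With uninjured library 467 left out, 4 of the 9 genes were called in vehicle lesions against uninjured cord, 4 in tamoxifen lesions against uninjured cord and 3 in tamoxifen against vehicle lesions. Cd163 then passed the threshold in tamoxifen lesions against uninjured cord (-0.69, adjusted p = 0.0469, range 0.0469 to 0.987 over 24 alternatives). Without the 5 libraries high in muscle transcripts, which left 1 vehicle and 2 uninjured libraries, 0 of the 9 genes were called in vehicle lesions against uninjured cord or in tamoxifen against vehicle lesions (edgeR; 0 at an unadjusted p under 0.05 in each). Platelet genes were low throughout, with a summed level of 10.3 to 17.7 CPM in tamoxifen lesions, 15.9 to 17 CPM in vehicle lesions and 12.2 to 17.8 CPM in uninjured cord. Ppbp, the platelet neighbour of Pf4, was at 3.1 CPM in uninjured library 376, where Pf4 was at 3.21 CPM, and at or below 0.784 CPM elsewhere.

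Folr2 shares 56.9% of its 31-base words with Gm10602, an antisense gene, and whether their reads were kept apart in counting was not tested; Gm10602 stayed at 1.84 to 4.41 CPM in all libraries. Cbr2 shares 15% with Gm11771 and Clec10a shares 13.7% with its paralog Mgl2, and no other of the 9 genes shared more than 1.66%. Mgl2 averaged 1.08 ± 0.748 CPM in tamoxifen lesions and 1.96 ± 1.22 CPM in vehicle lesions (SD, n = 4 each). It was not called between them (-0.94, adjusted p = 0.285, edgeR), and the groups overlapped, unlike those of Clec10a. Vehicle library 457 was at 3.76 CPM and the other vehicle libraries at 1.1 to 1.6 CPM, with tamoxifen library 452 at 2.04 CPM.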

How the data were processed

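Counts per gene were deposited by the authors as a table of 37991 genes in 12 libraries, and FPKM as a second table. Per the submitters' processing notes, TopHat, Picard, Cufflinks and HTSeq were used with mm9; no strand setting was named there. Symbols came from the FPKM table, where 18 identifiers with more than 1 row were summed and 22 cells held no number.

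Counts were fitted with edgeR 4.0.16 (R 4.3.3): filterByExpr (minimum count 10, minimum total 15), TMM factors, 1 mean per group over all 12 libraries, 9 residual degrees of freedom, two-sided quasi-likelihood tests, Benjamini-Hochberg adjustment. Alternatives used DESeq2 1.42.0, and limma 3.58.1 on log2(FPKM + 1) and log2(FPKM + 0.1). The fit was tested on simulated data. CPM use TMM totals; intervals on counts are exact Poisson at 95% and cover counting error only. Likeness used genes with a mean of at least 1 CPM and a pseudocount of 0.5. Shared words were searched in GENCODE vM21 transcripts. Further genes were named by the smallest p in each list (up to 4 per comparison) plus some named whatever their values; Cd209a, Il4, Il13, Crabp2 and Gm10602 were added after their values were seen. The 9 genes and all lists were chosen with earlier results of these data known. Depth was 7967970 to 12581324 counts. P-values of the main fit set a difference against the spread between libraries within groups. That spread was pooled over all 3 groups of 4 libraries, the group not compared included.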

Additional observations from a re-analysis of the deposited data

Results flagged for a closer look

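Mrc1 in uninjured library 467, at 1.4 CPM, stood far below the other 3 uninjured libraries, at 9.93 to 10.6 CPM: its gap to the nearest of them was 0.931 of the whole range of the group, above Dixon's 95% critical value for 4 samples. It was the 1 such value among 27 groups of 4 libraries examined, and chance gives about 1 in 20. Library 467 also had the lowest meningeal fibroblast sum, 71.3 CPM.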

How the results depend on the processing

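Of the log2 changes of the 9 genes, 281 kept their direction and their side of the threshold when 1 library was left out, 26 lost and 9 gained the call, and 8 turned; under the other settings these numbers were 274, 22, 8 and 17. No paired analysis was possible because the library numbers are unique to each library and no group shares them. The cause of each change below was not tested.

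With 1 library left out, tamoxifen against vehicle lesions gave 0 to 3 of the 9 genes and 1236 to 4631 genes called, and an Arg1 change of 1.60 to 2.85. Vehicle lesions against uninjured cord gave 3 to 6 and 7267 to 8987, with Arg1 at 2.26 to 3.02, and tamoxifen lesions against uninjured cord gave 3 to 4 and 6717 to 8895. Changes that turned lay close to 0: F13a1 ran from -0.24 to 0.24 and Stab1 from -0.57 to 0.03 in tamoxifen against vehicle lesions, Cd163 from -0.44 to 0.21 in vehicle lesions against uninjured cord, and Clec10a from -0.24 to 0.91 in tamoxifen lesions against uninjured cord.

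In tamoxifen against vehicle lesions, limma on log2(FPKM + 1) called 0 of the 9 genes (2 at an unadjusted p under 0.05) and 1521 genes, with Arg1 at 1.34 (adjusted p = 0.128), and Arg1 at 0.88 in vehicle lesions against uninjured cord (0.205). On log2(FPKM + 0.1) it called 0 (1 unadjusted) and 1442, with Arg1 at 1.69 (0.198). Clec10a turned to -0.05 on log2(FPKM + 1) in tamoxifen lesions against uninjured cord, and on log2(FPKM + 0.1) Cd163 turned to 0.15 in vehicle lesions and 0.01 in tamoxifen lesions against uninjured cord. The fit of the 8 lesion libraries called 1513 genes, with Arg1 at 2.43 (0.0792); Arg1 did not pass the filter in the 8-library fits against uninjured cord.

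The term for the name series called 0 of the 9 genes (1 unadjusted) and 57 genes in tamoxifen against vehicle lesions, and 1 and 1951 in tamoxifen lesions against uninjured cord; Arg1 turned to -1.36 (0.588), Folr2 to -0.17 and F13a1 to -0.65. Without libraries 513, 549 and 564, where the lone tamoxifen library is assumed to vary like the other groups, these were 0 (1 unadjusted) and 29 genes, 0 (1 unadjusted) and 2024 genes, -1.36 (0.47), -0.17 and -0.65. The term for sex called 0 (2 unadjusted) and 989 genes in tamoxifen against vehicle lesions, with Arg1 at 1.95 (0.254) and F13a1 at -0.53, and Cd163 at 0.54 in vehicle lesions against uninjured cord.

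Without the 5 libraries high in muscle transcripts, tamoxifen against vehicle lesions gave 0 of the 9 genes and 0 genes called (edgeR; 0 and 1239 at an unadjusted p under 0.05), with Arg1 at 2.88 (0.663), Cd163 at 0.20, Stab1 at 0.52, Pf4 at 0.84 and Cbr2 at 0.04. Vehicle lesions against uninjured cord gave 0 (0 unadjusted) and 296 genes, with Arg1 at 2.13 (0.602) and Pf4 at -0.16, and tamoxifen lesions against uninjured cord gave 1 and 3540 genes, with Cd163 at 0.14. Only 1 vehicle library was left there. Low counts of Arg1 and Clec10a limit what can be said of uninjured cord.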
